A study of Mus musculus with 4 samples.

Results

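The transcripts of the mitochondrial genome were examined in 4 RNA sequencing libraries labelled as medial basal radial glial cells of the mouse, taken at E18.5. They were taken as every gene of the count table whose symbol begins with mt- in GENCODE M21, which gave 37 of 45706 genes. Of these, 13 encode mRNAs, 2 encode rRNAs and 22 encode tRNAs. Basal radial glia are dividing precursors of cortical neurons that have lost contact with the ventricle. All 4 libraries form a single group: C57BL/6JOlaHsd strain, Tubb-GFP/+ genotype, with the dye DiI named in the library titles. No control group exists, so the comparisons are between genes within libraries. Separate animals are not stated for the replicates, so each p-value reflects spread among these samples alone, and that spread may be technical. Library totals ran from 26540656 to 34837657 counts. Levels per length are the counts per kilobase of merged exons scaled to the same total in each library (TPM).

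The labelled cell type was checked against markers. All 7 radial glia markers lay above 1 TPM, as did 65.9% of all genes tested, and they ranged from Hopx at 3.03 ± 0.414 TPM to Fabp7 at 4631 ± 382 TPM (SD, n = 4). All 5 neuronal markers did too, led by Tubb3 at 6691 ± 496 TPM, so the libraries held transcripts of both. The neuronal markers stood higher, with a median of 661 TPM and a sum of 9753 ± 505 TPM. The radial glia markers had a median of 30.0 TPM and a sum of 5197 ± 403 TPM. All 4 erythroid markers and all 4 microglial markers also lay above 1 TPM, with summed levels of 1935 ± 565 and 26.6 ± 8.11 TPM. The erythroid sum was 1599, 2779, 1725 and 1637 TPM in replicates 1 to 4, highest in replicate 2. Of the 3 endothelial markers none lay above 1 TPM and Kdr lay below it. In bulk RNA such as this, the number of cells of a type and the RNA per cell cannot be told apart, and mitochondrial transcripts were not assigned to cell types.

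The mitochondrial genome is transcribed from both strands into long precursors, and the tRNAs that punctuate it are cut out to free the mRNAs and rRNAs between them. Its mRNAs encode core subunits of the respiratory chain: NADH dehydrogenase (complex I), cytochrome b of complex III, cytochrome c oxidase (complex IV) and ATP synthase (complex V). The nuclear genome encodes the other subunits of these complexes, and the proteins that copy, transcribe and process the mitochondrial genome and build its ribosome around the mitochondrial rRNAs. Pieces of mitochondrial DNA have also been inserted into nuclear chromosomes, where they persist as pseudogenes.

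Mitochondrial genes took 386846, 459883, 451119 and 398010 counts in replicates 1 to 4. These were 1.38%, 1.32%, 1.51% and 1.5% of all counts, or 1.43% on average. The exact (Clopper-Pearson) 95% intervals of these shares did not overlap between any of the 4 libraries. These intervals treat PCR-amplified reads as independent and hold no spread from sampling or library preparation. On the TPM scale, which corrects for length, the 37 genes made up 3.52%, 3.34%, 3.81% and 3.92%. By count, mt-Cytb was the ninth-ranked gene of the table and mt-Rnr2 ranked 16; by TPM they ranked 4 and 8.

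Messenger RNAs held 67.6% ± 1.31 of mitochondrial counts (SD, n = 4), rRNAs 32.4% ± 1.31 and tRNAs 0.0479% ± 0.00836. These are shares of counts from oligo-dT primed cDNA, and the totals include genes of uncertain value, described below. The mRNA share was 66.6%, 69.2%, 66.4% and 68.2% in replicates 1 to 4, and the rRNA share 33.4%, 30.8%, 33.5% and 31.8%. Replicates 1 and 3 thus had more of their mitochondrial counts in rRNA than replicates 2 and 4. Among complexes, complex III held 31.4% ± 0.853 of mitochondrial counts through mt-Cytb alone. The 7 mRNAs of complex I together held 27.3% ± 0.405, and the 3 of complex IV 8.88% ± 0.339. The 2 mRNAs of complex V held 0%, 0%, 0.000443% and 0%, from 2 counts in replicate 3. A count of 0 allows up to 3 counts per library, for counting error only.

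**Figure D1:**
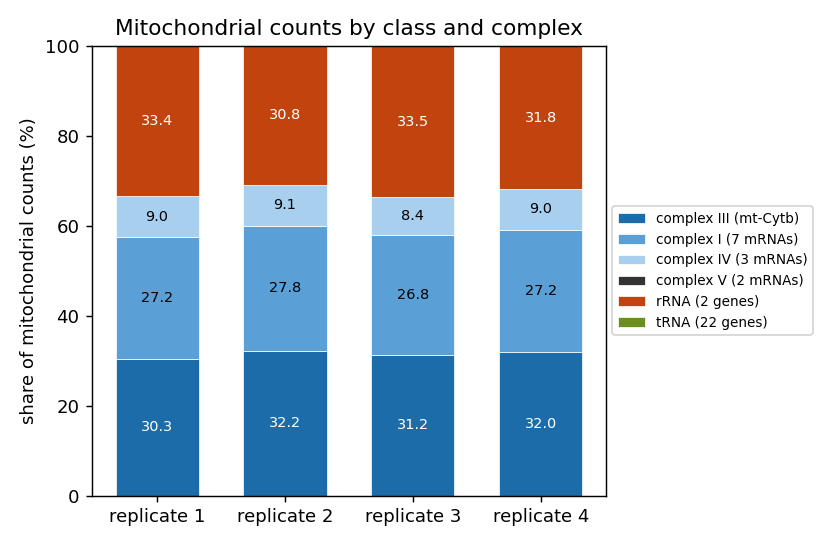
Share of mitochondrial counts (%) in each of the 4 libraries, split into the mRNAs of complexes III, I, IV and V, the rRNAs and the tRNAs. Complex III ran from 30.3% to 32.2% and rRNA from 30.8% to 33.5%; complex V and tRNA are too small to see.

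The near absence of complex V was shared by a run of neighbouring genes. mt-Co3 (a core subunit of complex IV), mt-Atp8 (of complex V) and mt-Nd4l (of complex I) had 0 counts in all 4 libraries. mt-Atp6, of complex V, had 0, 0, 2 and 0 counts, and mt-Co2, of complex IV, 1, 0, 1 and 3. mt-Nd3, of complex I, had 67, 107, 115 and 36. Together these 6 mRNAs held 332 counts over all libraries, against 1146252 for the 7 other mRNAs. In the library where a count weighs most, 3 counts stood for 0.464 TPM in mt-Co3, 1.78 TPM in mt-Atp8 and 1.23 TPM in mt-Nd4l. They are genes that every cell with respiring mitochondria uses, so they are given here only as listed at or near 0.

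These 6 genes lie side by side, in a stretch of the mitochondrial genome whose annotated copies on chromosome 1 match it almost letter for letter. A search of all annotated transcripts found 7 pseudogenes there, between 24611535 and 24616197 on the minus strand of GRCm38, each at least 99% identical to its mitochondrial counterpart. In mitochondrial order they are Gm29216, Gm28661, Gm10925, Gm28437, Gm28438, Gm10222 and Gm28439. They keep the order of the mitochondrial genes, with spacing equal to within 1 base. Their matches run from position 6390 to 11042 of the mitochondrial genome, a block of 4653 bases. The stretches between annotated copies, which hold 5 tRNAs, were not compared. No mismatch was found between mt-Co2 and Gm28661 over 681 of 684 bases, mt-Atp6 and Gm10925 over 678 of 681, mt-Co3 and Gm28437 over 783 of 784, or mt-Nd4l and Gm10222 over 294 of 297. For mt-Atp8 the annotated copies cover only the 43 bases that it shares with mt-Atp6. The rest of mt-Atp8 falls between Gm28661 and Gm10925, whose sequence was not used here. mt-Nd3 differs from Gm28438 by T3C (positions from 1 at the 5′ end of the gene, mitochondrial base first) and matches it at the other aligned bases of 345.

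The starts of the genes with and without a difference are printed to show how little separates these sequences. For mt-Nd3 (chrM:9459-9518, plus strand) and Gm28438 (chr1:24613060-24613119, minus strand), the differing base is in capitals:
mt-Nd3: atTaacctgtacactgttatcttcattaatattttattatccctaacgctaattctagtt
Gm28438: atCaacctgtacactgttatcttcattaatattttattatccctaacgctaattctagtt
For mt-Co2 (chrM:7013-7072, plus strand), its chromosome 1 copy (chr1:24615506-24615565, minus strand) and a more diverged copy on chromosome 2 (chr2:22587903-22587962, minus strand), capitals mark the bases at which the chromosome 2 copy differs, C25T and G57A:
mt-Co2: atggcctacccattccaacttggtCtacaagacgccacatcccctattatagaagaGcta
Gm28661: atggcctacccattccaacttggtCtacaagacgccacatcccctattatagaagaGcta
Gm13341: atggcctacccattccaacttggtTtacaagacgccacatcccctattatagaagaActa

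The copies themselves had few counts. The 7 chromosome 1 pseudogenes held 129 counts over all libraries: 31 for Gm28438, 26 each for Gm29216 and Gm28437, 22 for Gm28661, 21 for Gm10925, 3 for Gm28439 and 0 for Gm10222. The more diverged chromosome 2 copies had more, with 207 for Gm13341 (95.9% identical to mt-Co2), 160 for Gm13340 (97.6% identical to mt-Co1) and 1 for Gm13339 (96.7% identical to a part of mt-Nd2). Gm4076 on chromosome 13, 95.2% identical to a part of mt-Nd5, had 6. Adding each copy to its mitochondrial gene raised the mean share of complex V from 0.000111% to 0.00133%. How reads that fit several places were treated is not stated. Values of genes inside the block are therefore uncertain, and so are totals, shares and ranks that include them. The part of the shared sequence in their low counts was not tested.

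**Figure D2:**
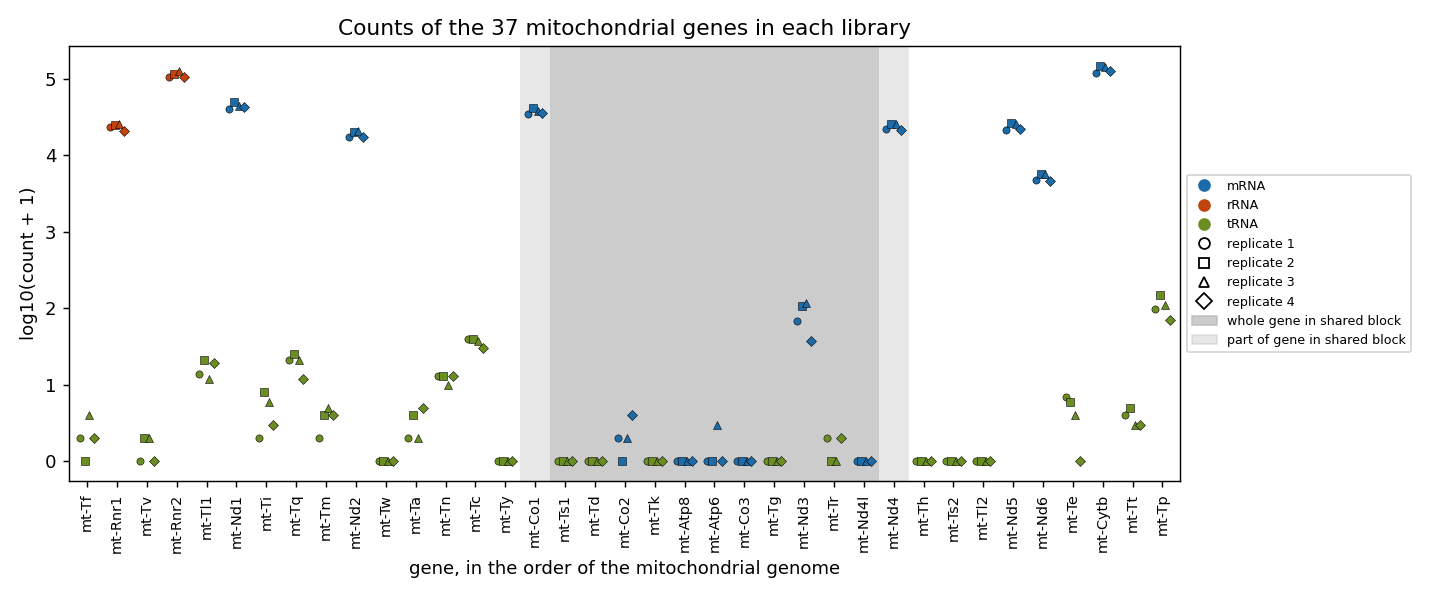
Counts of the 37 genes in the 4 libraries, as log10(count + 1), in the order of the mitochondrial genome, coloured by class. Dark grey marks genes wholly inside the block shared with chromosome 1 and light grey genes partly inside it. The block spans the first to the last aligned base, and the tRNAs and most of mt-Atp8 in it were not aligned. All 6 mRNAs in dark grey averaged at most 81.2 counts, while those outside the block averaged 5150 to 133415.

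Of the 13 mRNAs, 6 lie wholly inside the block, 2 partly (mt-Co1 and mt-Nd4) and 5 outside it (mt-Nd1, mt-Nd2, mt-Nd5, mt-Nd6 and mt-Cytb). Those outside averaged from 5150 to 133415 counts and those inside at most 81.2. The 2 partly inside lay within the range of those outside, mt-Co1 at 37602 and mt-Nd4 at 23690 counts on average. These groups were not tested against each other, and no like comparison was made over all genes.

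Levels were tested against 1 TPM with edgeR's quasi-likelihood test over 20991 genes with at least 10 counts. Of the 37 mitochondrial genes, 19 passed that filter and all 19 were called above 1 TPM; across all genes tested 65.9% were above and 12.1% below. The 18 others had too few counts to be tested. A gene as short as a tRNA that reaches 10 counts lies above 1 TPM by its length alone (mt-Tm, with 11 counts, averaged 4.2 TPM), so the calls of the 9 tRNAs among the 19 follow from the filter. The count of 19 was 11 when no length correction was made and the level set at 1 CPM, with 6 genes then below, since the tRNAs are very short.

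mt-Cytb, which encodes cytochrome b of complex III, had the highest listed level of the 37 genes, with the values of genes inside the shared block uncertain. It lay at 11466, 11512, 12808 and 13503 TPM in replicates 1 to 4, or 12322 ± 1003 TPM (SD, n = 4; edgeR adjusted p = 5.42e-25 against 1 TPM). Replicates 3 and 4 were higher than replicates 1 and 2. It alone held 30.3%, 32.2%, 31.2% and 32.0% of mitochondrial counts.

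Complex I was represented by 6 of its 7 mRNAs. mt-Nd1, a subunit of the membrane arm next to the quinone site, lay at 4669, 4614, 4742 and 5404 TPM (mean 4857 ± 368), highest in replicate 4. mt-Nd2 lay at 1850, 1739, 2053 and 2018 TPM and mt-Nd5, at the far end of the proton-pumping arm, at 1295, 1285, 1478 and 1481 TPM. mt-Nd6 lay at 1014, 976.0, 1132 and 1063 TPM. These mRNAs lie outside the shared block, and in each the spread between libraries was small beside the distance from 1 TPM (edgeR adjusted p at most 4.33e-20). mt-Nd4, whose first 876 of 1378 bases lie in the block, was at 1799, 1658, 1917 and 1892 TPM by its whole length. mt-Nd3 was at 21.5, 27.3, 34.4 and 12.6 TPM.

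For complex IV, which reduces oxygen to water, only mt-Co1 had more than 10 counts. It encodes the catalytic subunit and lay at 2527, 2406, 2545 and 2818 TPM (mean 2574 ± 174; edgeR adjusted p = 5.23e-23). Its last 483 of 1545 bases lie in the shared block, and these differ from Gm29216 at 1 base. The 3 mRNAs of the complex thus ranged from mt-Co1 at 2574 TPM to mt-Co3 listed at 0.

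The 8 mRNAs with a count in every library followed the order mt-Cytb, mt-Nd1, mt-Co1, mt-Nd2, mt-Nd4, mt-Nd5, mt-Nd6 and mt-Nd3, and this order was the same in all 4 libraries. mt-Cytb exceeded mt-Nd1 2.54-fold (log2 ratio 1.34 ± 0.062, SD, n = 4) and mt-Nd1 exceeded mt-Co1 1.89-fold (0.92 ± 0.028). mt-Co1 exceeded mt-Nd2 1.34-fold (0.43 ± 0.079). mt-Nd2 and mt-Nd4 were closest, at 1.05-fold (0.075 ± 0.026). mt-Nd4 exceeded mt-Nd5 1.31-fold (0.39 ± 0.055) and mt-Nd5 exceeded mt-Nd6 1.32-fold (0.40 ± 0.053). The largest step was from mt-Nd6 to mt-Nd3, 46.5-fold (5.54 ± 0.62). In each of the 7 neighbouring pairs the first was higher in 4 of 4 libraries, for which the exact sign-flip permutation p is 0.13, the smallest that 4 libraries allow.

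This order depended on the length by which mt-Nd4 and mt-Co1 were divided. In an alternative added after the values were seen, only the bases outside the shared block, 502 for mt-Nd4 and 1062 for mt-Co1, were used as length. All counts of both genes were kept, so the values are not levels measured on those bases alone. How many of the counts came from inside the block was not measured. mt-Nd4 then lay at 4965 ± 319 TPM, 2.73 times its whole-gene value. mt-Co1 lay at 3728 ± 251 TPM, 1.45 times its whole-gene value. mt-Nd4 stood beside mt-Nd1, with a log2 ratio of 0.038 ± 0.095 and the higher level in 2 of 4 libraries (exact permutation p = 0.5), a difference within the spread between libraries. The log2 ratio of mt-Nd2 to mt-Nd4 turned to -1.38. The other neighbours on this scale remained apart in 4 of 4 libraries: mt-Cytb over mt-Nd4 (2.47-fold), mt-Nd1 over mt-Co1 (1.3-fold), mt-Co1 over mt-Nd2 (1.96-fold), mt-Nd2 over mt-Nd5 (1.38-fold) and mt-Nd5 over mt-Nd6.

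**Figure D3:**
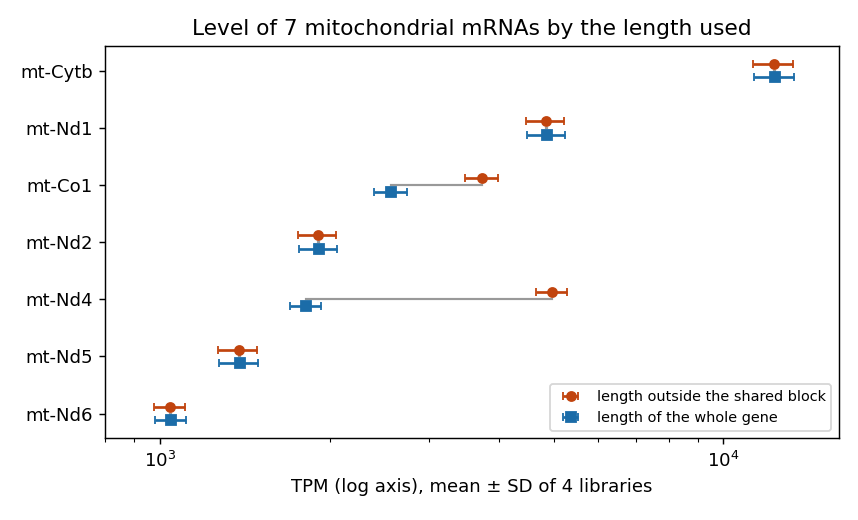
TPM (log axis) of the 7 mRNAs with at least 100 bases outside the shared block, as mean ± SD of 4 libraries, divided by the length outside the block (circles) or the whole gene length (squares). Both use all counts of the gene. mt-Nd4 lies at 4965 TPM against 1816 TPM and mt-Co1 at 3728 TPM against 2574 TPM, while the other 5 keep their place.

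The 2 rRNAs are the structural RNAs of the mitochondrial ribosome. mt-Rnr2, the 16S RNA of its large subunit (chrM:1094-2675), had 105460, 116895, 125412 and 105492 counts and lay at 7449, 6564, 8252 and 8094 TPM. mt-Rnr1, the 12S RNA of the small subunit (chrM:70-1024), had 23611, 24689, 25855 and 21043 counts and lay at 2763, 2297, 2818 and 2675 TPM. Both were lowest per length in replicate 2, the library with the highest erythroid sum, whose part in this was not tested. Per length mt-Rnr2 exceeded mt-Rnr1 2.70, 2.86, 2.93 and 3.03 times. The cDNA was primed with oligo-dT, and the A tails of these RNAs were not measured. mt-Rnr2 was second to mt-Cytb per length, and its count was 0.788 to 0.898 of that of mt-Cytb, lowest in replicate 2.

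Of the 22 tRNAs, 9 had no count: mt-Tw, mt-Ty, mt-Ts1, mt-Td, mt-Tk, mt-Tg, mt-Th, mt-Ts2 and mt-Tl2. All tRNAs together held 817 counts over 4 libraries. Inside the shared block 4 of 5 tRNAs had no count, and outside it 5 of 17. Over all 45143 matched genes 27789 had at least 1 count, beside 13 of the 22 tRNAs. The part of the block in this was not tested. No annotated copy covers the 5 tRNAs inside, so their sequence was not compared with chromosome 1. mt-Tp, the proline tRNA (chrM:15356-15422), had 96, 149, 109 and 69 counts, 51.8% of all tRNA counts, and lay at 163 ± 29.9 TPM. It was followed by mt-Tc, the cysteine tRNA (chrM:5192-5257), with 39, 39, 36 and 29 counts (57.2 ± 6.20 TPM). Both lie on the minus strand. Their sequences are given, since they carried most of the tRNA signal, in the sense of the tRNA:
mt-Tp: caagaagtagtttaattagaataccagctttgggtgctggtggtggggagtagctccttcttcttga
mt-Tc: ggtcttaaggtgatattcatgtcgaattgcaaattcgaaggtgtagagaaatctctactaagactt

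The next tRNAs were mt-Tq (glutamine) with 20, 24, 20 and 11 counts, mt-Tl1 (leucine) with 13, 20, 11 and 18, and mt-Tn (asparagine) with 12, 12, 9 and 12. The 8 tRNAs of the minus strand, the light-strand transcripts, held 86.8% of tRNA counts and the 14 of the plus strand the rest. Among those with at least 10 counts, 5 were on the minus and 4 on the plus strand. mt-Tl1 shows the gap in counted level between a tRNA and its neighbours: it lay at 21.9 ± 5.94 TPM, between mt-Rnr2 at 7590 ± 767 TPM and mt-Nd1 at 4857 ± 368 TPM. The cDNA was primed with oligo-dT and fragmented, and its capture of RNAs as short as tRNAs was not measured. The library protocol does not mark strand, so reads of a minus-strand tRNA and of a plus-strand precursor across it cannot be told apart. How reads across a boundary of 2 genes were counted is not stated.

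mt-Nd6 is the only mRNA of the minus strand. In human cells its mRNA is known to lack a poly(A) tail. It held 1.22%, 1.24%, 1.25% and 1.14% of mitochondrial counts, and its neighbour on the plus strand, mt-Nd5, exceeded it per length 1.28, 1.32, 1.31 and 1.39 times. The genes share 14 bases on opposite strands. Since the protocol does not mark strand, plus-strand RNA across any part of mt-Nd6 cannot be told apart from its mRNA. Its value, and its ratio to mt-Nd5, are uncertain to an extent that was not measured. Other members overlap too: mt-Atp8 and mt-Atp6 by 43 bases, mt-Nd4l and mt-Nd4 by 7.

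The fixed differences between classes and complexes, taken as the mean of log2(TPM + 1) over all members, moved with the genes listed at or near 0. The mRNA mean lay at 6.48 ± 0.071 and the rRNA mean at 12.12 ± 0.14 (log2, SD, n = 4), a difference of -5.64 ± 0.094. With lengths outside the shared block it was -0.50 ± 0.081. That alternative leaves out the 6 mRNAs inside the block. It also shortens the lengths of mt-Nd4 and mt-Co1 while keeping all their counts. The same holds for each other value called outside the block. The rRNA mean exceeded the tRNA mean by 10.27 ± 0.16 and the mRNA mean exceeded the tRNA mean by 4.63 ± 0.080. How oligo-dT priming captured each class was not measured. Plus-strand mRNAs minus the minus-strand mRNA gave -3.84 ± 0.027 over all members, but 1.86 ± 0.063 on the bases outside the block. The strand limit on mt-Nd6 applies to both values. Complex I averaged -5.16 ± 0.13 against complex III, and -2.41 ± 0.043 outside the block. Against complex IV it averaged 4.56 ± 0.16, and -0.69 ± 0.060 outside the block, so the direction turned. Complex III exceeded complex IV by 9.72 ± 0.069, and by 1.72 ± 0.061 outside the block. Complex V has no gene outside the block and no count in 3 libraries, so its differences rest on the pseudocount. Complexes I, III and IV minus complex V were 8.38, 13.54 and 3.81 with 1 TPM added, and 11.01, 16.65 and 5.08 with 0.1 TPM added; by medians IV minus V was 0.21 (exact permutation p = 0.25). Each of these differences over all members, by means with 1 TPM added, had the same sign in all 4 libraries. With 14 differences in the family, each exact sign-flip permutation p and each adjusted p was 0.13, the smallest possible.

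The nuclear subunits of the same complexes were measured in the same libraries. All 36 nuclear subunits of complex I, all 4 of complex II, all 9 of complex III, all 11 of complex IV and all 15 of complex V on the list were called above 1 TPM by edgeR, beside 65.9% of all genes tested. Their medians were 8.19, 8.42, 8.71, 9.47 and 8.59 on the log2(TPM + 1) scale, against 2.53 over all genes tested and 3.31 over protein-coding genes tested. The most abundant were Ndufc2 (1318 ± 37.8 TPM) and Ndufa2 (935 ± 72.8 TPM) of complex I, and Sdhb (571 ± 13 TPM) and Sdhd (383 ± 4.23 TPM) of complex II. In complex III they were Uqcr10 (909 ± 45.1 TPM) and Uqcrh (779 ± 35.6 TPM). In complex IV they were Cox6a1 (2195 ± 163 TPM) and Cox4i1 (1615 ± 70.2 TPM), and in complex V Atp5a1 (1312 ± 74.0 TPM) and Atp5c1 (1133 ± 49.2 TPM).

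Against these nuclear partners the mitochondrial mRNAs differed by complex. mt-Cytb exceeded the mean of the complex III nuclear subunits by 5.29 ± 0.16 on the log2 scale (SD, n = 4). In complex I the difference was 0.50 ± 0.11 over all 7 mRNAs and 3.25 ± 0.15 outside the block, with 5 mRNAs and the shorter length of mt-Nd4. Over all 7 mRNAs it was 0.037 with 0.1 TPM added, with mixed signs between libraries (exact permutation p = 0.75), and -0.11 on CPM, so no direction is given. Single genes crossed the means: mt-Nd6, at 1046 TPM, lay below Ndufc2, at 1318 TPM. In complex IV it was -4.97 ± 0.22 over all 3 mRNAs against 2.49 for mt-Co1 alone at its whole length and 3.03 ± 0.20 with its length outside the block. In complex V it was -8.14 ± 0.12, from mt-Atp6 and mt-Atp8 only, both inside the block, and rests on the pseudocount. With 1 TPM added, the sign over all members was the same in all 4 libraries for each complex.

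**Figure D4:**
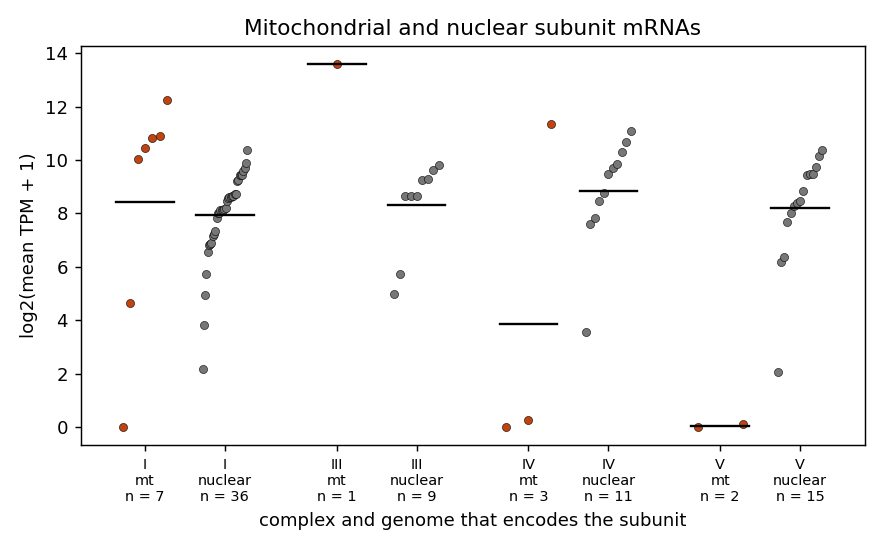
Each point is the log2(mean TPM + 1) of 1 subunit mRNA over 4 libraries, mitochondrial subunits in red to the left of nuclear subunits in grey for complexes I, III, IV and V, with a line at the mean of the points. mt-Cytb and mt-Co1 stand above the nuclear subunits of their complexes, while mt-Co2, mt-Co3, mt-Atp6 and mt-Atp8 lie at or near 0.

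The nuclear genes that run the mitochondrial genome were examined by function, each count to be read beside the 65.9% of all genes tested that lay above 1 TPM. All 10 genes of mitochondrial transcription lay above it, with a median of 20.9 TPM. They were led by Tefm, an elongation factor, at 95.4 ± 9.74 TPM and Tfam, which packages and activates the genome, at 47.1 ± 3.65 TPM. All 8 replication genes were above 1 TPM (median 22.7 TPM), led by the helicase gene Twnk at 38.4 ± 5.10 TPM and Mgme1 at 29.6 ± 2.47 TPM. Of 13 genes for precursor cleavage and tRNA maturation 12 were above, among them Hsd17b10, a subunit of mitochondrial RNase P, at 325 ± 15.5 TPM and Trit1 at 170 ± 15.1 TPM. The exception, Gtpbp3, was at 1.07 ± 0.407 TPM (edgeR adjusted p = 0.738). All 17 genes of RNA stability, polyadenylation and decay were above, led by Ptcd2 (132 ± 13.9 TPM) and Slirp (65 ± 1.49 TPM), the partner of Lrpprc in mRNA stabilisation.

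Of 78 mitochondrial ribosomal protein genes 77 were tested and 76 were above 1 TPM, beside 65.9% of all genes tested, with a median of 87.2 TPM, led by Mrpl28 (616 ± 21.9 TPM) and Mrpl34 (415 ± 25.5 TPM). Mrps34 was not called, at 0.522 ± 0.154 TPM (edgeR adjusted p = 0.0792), and Mrpl53 had 5 counts. Of 7 regulators of mitochondrial biogenesis 6 were above 1 TPM, with a median of 9.37 TPM, led by Nrf1 (47.2 ± 1.60 TPM) and Pprc1 (19.7 ± 1.72 TPM). Esrra, at 1.09 ± 0.283 TPM, was not called (edgeR adjusted p = 0.599).

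The spread between libraries of the abundant members was near that of other genes at their depth. Over the 9 members with a mean of at least 1000 counts, the SD of log2 CPM had a median of 0.10 and ran from 0.071 (mt-Co1) to 0.14 (mt-Rnr2), against a median of 0.11 over all 5278 genes at that depth. Low-count members spread more, with an SD of 0.65 for mt-Nd3, 0.38 for mt-Tl1 and 1.15 for mt-Ti, which had 15 counts in all. This did not follow the count alone. mt-Tc, with 143 counts, had 0.16 and mt-Tp, with 423, had 0.30, while mt-Nd3 had 325 counts. mt-Nd3 had its lowest value in replicate 4. Of 15 members with at least 40 counts, 7 were lowest in replicate 2 and 7 were highest in replicate 3. The same count was not made over all genes. The mitochondrial share of all counts was itself lowest in replicate 2 (1.32%) and highest in replicate 3 (1.51%), so the members are not separate observations. No member was called more variable than other genes of like abundance by edgeR, but neither was any other gene (0.00% of 16706). At an unadjusted p under 0.05 these were 3.80% of all genes and 1 member, mt-Rnr2 (edgeR unadjusted p = 0.0311, adjusted p = 0.967).

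The authors' deposited TPM table holds all 13 mitochondrial mRNAs and none of the rRNAs or tRNAs. In the authors' deposited table mt-Cytb was the highest gene of 15648, at 40216, 40519, 45094 and 47414 TPM, 3.51 times its exon-length TPM on average. mt-Nd1 ranked 6 there, mt-Co1 9, mt-Nd2 12 and mt-Nd4 13. An earlier description of these data found the deposited TPM to divide by the gene span and not by exon length. The deposited table also holds another set of genes, so its levels and ranks are not on the scale used above. mt-Co3, mt-Atp8 and mt-Nd4l stand at 0 in every library of that table as well.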

How the data were processed

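RNA was measured in 4 libraries of 1 group. Per the labels' protocols, oligo-dT primed cDNA of total RNA, completed by a template switch, was amplified and fragmented before library preparation. The submitters' processing notes name bcl2fastq 2.19.1, STAR 2.5.2b and the build GRCm38. Which counter, strand setting and annotation were used, and how multiply placed reads were handled, is not stated in the labels or notes. The authors deposited raw counts per Ensembl gene and a TPM table of 15648 genes. TPM was recomputed from the deposited counts with merged exon lengths of GENCODE M21 for the 45143 matched genes. The members and gene lists were chosen with earlier results of these data known.

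Levels were tested against 1 TPM over all genes with at least 10 counts with edgeR 4.0.16 (R 4.3.3): a one-sample quasi-likelihood F test, formed from the deviances of the fitted level and of 1 TPM, Benjamini-Hochberg adjusted, threshold 0.05. Excess spread was tested for genes with at least 40 counts. Both were tested on simulated data. Differences within libraries used log2(TPM + 1) and exact sign-flip permutation over libraries, two-sided. Of the 12 neighbouring mRNA pairs planned, 5 had no value, since a gene had a count of 0. Copies were sought with blastn 2.17.0 in all GENCODE M21 transcripts, from which the printed sequences come, at 95% identity or more over at least 100 bases. The text names all mRNAs and rRNAs, the 5 most counted tRNAs, tRNAs with no count, copies with a count, and in each nuclear list the 2 highest genes and any called below 1 TPM; other exceptions were named after their values were seen. The alternatives were TMM factors, DESeq2 1.42.0, other filters, lengths and pseudocounts, copies added to their gene, and leaving out each library. Intervals and limits cover counting error only, as PCR reads are not independent molecules.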

Additional observations from a re-analysis of the deposited data

Results flagged for a closer look

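Each value here was flagged because the highest or lowest of the 4 libraries stood far from the nearest other, measured as that gap over the whole range, past Dixon's 95% critical value for 4 values. Of 37 sets of 4 libraries examined, 6 were flagged. Chance flags about 1 in 20 where sets are independent and normally distributed. These sets share genes, and some hold mostly zeros, so the 6 cannot be set against that rate. mt-Nd1 was flagged at 0.839, with 5404 TPM in replicate 4 against 4614 to 4742 TPM in the others. mt-Tq was flagged at 0.830, with its lowest level, 18.8 TPM, in replicate 4. The share of mitochondrial counts in complex IV was flagged at 0.881, with 8.37% in replicate 3 and 9.01% to 9.10% in the others. The share in complex V was flagged at 1, since only replicate 3 had counts, 2 in all. The complex I minus complex III difference was flagged at 0.920, with -5.35 in replicate 4, and the complex III minus complex V difference at 0.856, with 13.72 in replicate 4.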

How the results depend on the processing

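With no length correction 11 members were above and 6 below 1 CPM, and the levels of mt-Tq, mt-Tl1 and mt-Tn turned to -0.68, -0.94 and -1.39 (log2), while mt-Tc was at 0.27 and no longer called. With no filter 1 member, mt-Atp6, was called below. As shares of summed TPM, mRNAs held 71.1%, rRNAs 28%, tRNAs 0.864%, and complexes I, III and IV 30.3%, 33.8% and 7.06%. Adding the copies gave complex V 0.00133%. With members of at least 10 counts, plus-strand minus minus-strand mRNA was 0.52, complex I minus IV -1.5 and mitochondrial minus nuclear in complex IV 2.49 (log2). These were 1.86, -0.69 and 3.03 with lengths outside the shared block, an alternative chosen after seeing the data. It kept all counts of mt-Nd4 and mt-Co1. On that scale mt-Nd2 over mt-Nd4 was -1.38. Mitochondrial minus nuclear in complex I was -0.11 on CPM. With 0.1 TPM added it was 0.037 (exact permutation p = 0.75) and with the longest transcript as length 0.11; complex IV minus V was 0.21 by medians (exact permutation p = 0.25). DESeq2 called 18 members above. Directions of the other differences and of the other named members' levels did not change. Leaving out each library left 15 to 17 members above 1 TPM, and 1525 to 1707 of all genes below it, against 2532 with all libraries, 6564 with no filter and 4929 on CPM. With TMM factors mt-Rnr2 lost its unadjusted call for excess spread. Complex V had no value on bases outside the block or with members of at least 10 counts. No paired analysis was possible because all libraries form 1 group. Most tRNAs had under 10 counts. For these, as for the mRNAs listed at 0, the cause was not tested.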

Other observations

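A few nuclear subunits lay far below the others of their complex; they were picked after their values were seen. Atp5l of complex V was at 3.19 ± 0.551 TPM (SD, n = 4), Ndufab1 of complex I at 3.51 ± 0.412 TPM and Cox5a of complex IV at 10.8 ± 3.38 TPM. The lowest of complex III, Cyc1, was at 31.0 ± 5.72 TPM. The medians of the 4 complexes were 385, 292, 708 and 418 TPM in that order. Other subunits were low too, such as Ndufb2 of complex I at 13.1 ± 0.696 TPM. Near-identical copies of these nuclear genes were not sought, and the cause of their low values was not tested.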
